A study of Schizosaccharomyces pombe with 40 samples.

Results

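The M-cell mating genes are 8 fission yeast genes that h- cells use to make and export their pheromone and to answer the pheromone of h+ cells. They were taken by name (mfm1, mfm2, mfm3, mam4, mam1, mam2, sxa2 and mam3) from a deposited expression table of 7013 genes of Schizosaccharomyces pombe, and all 8 were found there. The series deals with ELL (Ell1), an RNA polymerase II elongation factor, its partner EAF (Eaf1) and a further associated protein, Ebp1. The 17 polyA RNA libraries came from cells in mid log phase, grown at 32 °C in the rich medium YES, with adenine, histidine, leucine and uracil added, and the 23 chromatin and input samples were not analysed here.

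The libraries form 7 groups. Strain Pem2 (PEM-2 in its genotype label) gave 2 ell1Δ libraries, in which natMX6 replaced ell1, and 2 wild-type libraries. By its wild-type label, Pem2 is h- and carries mat1_m-cyhS, smt0 and rpl42::cyhR(sP56Q). Strain ED666 is h+, and its deletions were made with kanMX6. One set of it, whose replicates carry the suffix b and which is called ED666b here, gave 2 ell1Δ and 2 wild-type libraries. The other set, called ED666, gave 3 eaf1Δ, 3 ebp1Δ and 3 wild-type libraries. The labels of Pem2 wild type and of all ED666 and ED666b groups give the auxotrophic alleles ade6-M210, leu1-32 and ura4-D18. The label of Pem2 ell1Δ gives only PEM-2 and the deletion, so its other alleles are taken from Pem2 wild type. Pem2 thus differs from ED666 in mating type, in the cycloheximide alleles and in the deletion marker, and the parts of these in a strain difference cannot be told apart. The smt0 allele is known as a lesion at mat1 that stops mating-type switching, so Pem2 is a stable h- strain, whereas the labels do not say how the h+ state of ED666 is kept.

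Fission yeast has M cells (h-) and P cells (h+). M cells secrete M-factor, a short farnesylated and methylated peptide encoded by mfm1, mfm2 and mfm3, and carry Mam2, the receptor for the P-factor of P cells. Mating is normally held back in rich medium and set off by nitrogen starvation through the transcription factor Ste11, which works with the M-specific HMG-box protein Mat1-Mc on M-cell genes.

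The unit of level is scaled CPM, a value from the deposited table that makes 1 read count equally for all genes of a library. The 8 Pem2 and ED666b libraries were scaled together by the authors and held 35337271 to 43374049 reads each, and the 9 ED666 libraries were scaled apart and held 6486554 to 9193169. Groups were therefore compared only within each set, and levels set across the sets are side by side only. Tests used limma on log2(scaled CPM + 1) over 6160 genes, and a gene was called at a Benjamini-Hochberg adjusted p under 0.05. The fit took all 17 libraries together, so each gene has 1 spread, assumed equal in the 7 groups of both sets. Whether replicates came from separate cultures is not stated, so the p-values reflect the spread between libraries only, and that spread may be technical. In such bulk RNA, fewer cells expressing a gene and less RNA per cell cannot be told apart. The deleted genes checked the labels, though signal remained on each. In Pem2 ell1Δ, ell1 had 25.3 and 31.1 scaled CPM, against 68.5 and 71.4 in Pem2 wild type. In ED666b ell1Δ, ell1 had 16.6 and 20.6, against 84.6 and 73.5 in ED666b wild type. In eaf1Δ, eaf1 had 19.0 to 22.3, against 43.4 to 56.8 in ED666 wild type. In ebp1Δ, ebp1 had 8.28 to 10.2, against 61.2 to 79.6 in ED666 wild type. The source of this signal was not tested. By limma with Benjamini-Hochberg adjustment, ell1 fell by 1.29 (adjusted p = 0.0028) on the log2 scale in Pem2 ell1Δ and by 2.03 (adjusted p = 2.26e-05) in ED666b ell1Δ, eaf1 by 1.19 (adjusted p = 5.31e-05) in eaf1Δ, and ebp1 fell by 2.74 (adjusted p = 8.87e-09) in ebp1Δ.

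Between the strains, 1 of the 8 members was called. The M-factor precursor gene mfm2 (SPAC513.03) was far higher in Pem2, both in wild-type and in ell1Δ cells, while the log2 fold changes of the other 7 members lay between -0.26 and 0.83 in wild type and between -0.10 and 0.35 in ell1Δ. In wild-type Pem2, mfm2 had 114 and 50.7 scaled CPM, against 4.79 and 5.01 in wild-type ED666b. Both Pem2 libraries lay above both ED666b libraries. The means were 82.6 ± 45.0 in Pem2 and 4.90 ± 0.15 in ED666b (SD, n = 2 each), a 16.8-fold ratio. By limma with Benjamini-Hochberg adjustment over all genes, the log2 fold change was 3.71 (SE 0.36, 95% interval 2.92 to 4.50, adjusted p = 0.000393). In this comparison 5 of 6160 genes (0.0812%) were called in either direction. A limma fit on those 4 libraries alone gave the same log2 fold change with an adjusted p of 0.130, and leaving out 1 of the 4 libraries at a time gave log2 fold changes of 3.13 to 4.29. These leave-out fits stayed under the threshold, but each has an arm of 1 library whose spread is assumed to equal that of the other groups.

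The difference was also present in the strains without ell1. There mfm2 had 39.2 and 22.3 scaled CPM in Pem2, against 5.0 and 6.27 in ED666b. The ratio of means was 5.46, and the log2 fold change was 2.21 (SE 0.36, adjusted p = 0.0345, limma), in a comparison where 9 genes (0.146%) were called. This call was lost when any 1 of the 4 libraries was left out, with adjusted p of 0.537 without Pem2 ell1Δ replicate 1, 0.0812 without Pem2 ell1Δ replicate 2, 0.266 without ED666b ell1Δ replicate 1 and 0.221 without ED666b ell1Δ replicate 2 (limma), and it was lost in a fit of those 4 libraries alone (adjusted p = 0.243). Over all 13 h+ libraries of ED666 and ED666b, mfm2 ranged from 2.56 to 6.5 scaled CPM with a median of 4.55, across 2 scalings. The lowest of the 4 Pem2 libraries stood at 22.3, above all 13.

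**Figure D1:**
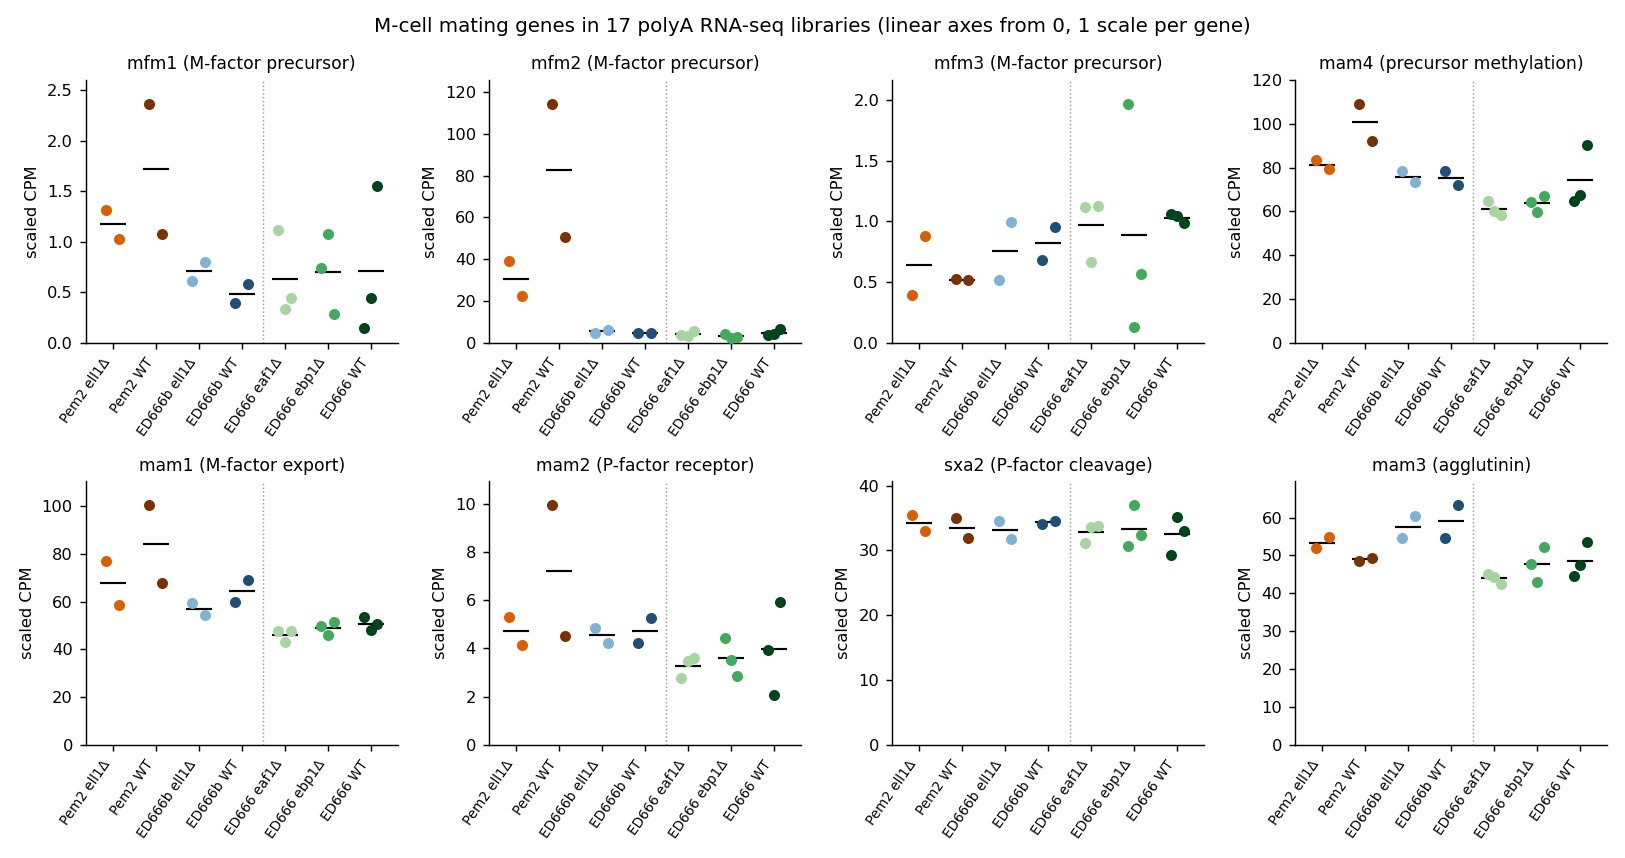
Scaled CPM of the 8 members in each library (points) with the group mean (line), on linear axes from 0 that differ between genes; the dotted line parts the 2 sets that were scaled separately. The 4 Pem2 points of mfm2 sit between 22.3 and 114, above the h+ points at 2.56 to 6.5, while sxa2 lies between 29.3 and 37.0 in all groups.

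The other precursor genes had few reads. The gene mfm1 (SPAPB8E5.05) had 2.37 and 1.08 scaled CPM in wild-type Pem2, against 0.395 and 0.583 in wild-type ED666b, and 1.32 and 1.03 in Pem2 ell1Δ, against 0.610 and 0.804 in ED666b ell1Δ. All 4 Pem2 libraries were above all 4 ED666b libraries, but these values rest on 42 to 85 reads a library in Pem2 and 15 to 34 in ED666b. The share of all genes that part in this way was not counted. Its log2 fold change in wild type was 0.83 (SE 0.35, adjusted p = 0.812, limma). That size depended on the pseudocount, with 1.55 at pseudocount 0.1, 0.29 at pseudocount 5 and 1.79 by edgeR, and it was not called in any of these. For mfm3 (SPBPJ4664.03) the wild-type values were 0.529 and 0.515 in Pem2, against 0.685 and 0.954 in ED666b, so the Pem2 values were the lower ones (log2 fold change -0.25, SE 0.32, adjusted p = 0.933, limma). The low-value filter (1 scaled CPM in at least 2 libraries) was met by mfm3 in 5 of 17 libraries, none of them Pem2, and by mfm1 in 7, of which 4 were Pem2. The other 6 members reached it in all 17.

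**Figure D2:**
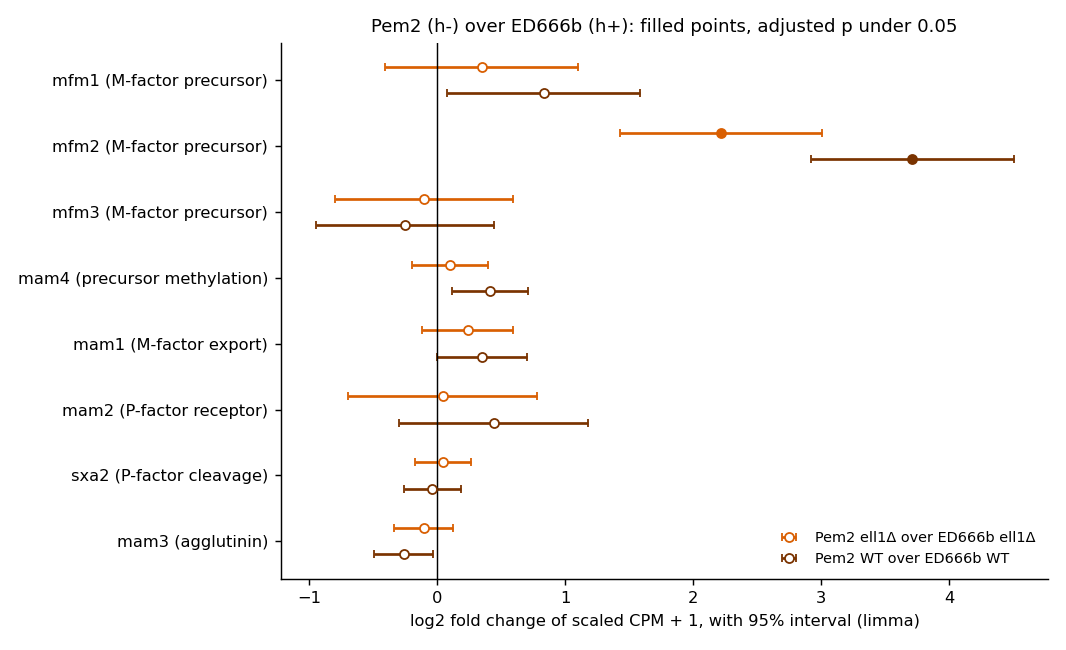
Log2 fold change of scaled CPM + 1 of each member in Pem2 over ED666b, with its 95% interval from limma, in ell1Δ (light) and in wild type (dark); filled points are called. Only mfm2 is filled, at 2.21 in ell1Δ and 3.71 in wild type.

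Members that modify and export M-factor showed small strain differences that were not called. The gene mam4 (SPAC10F6.12c) encodes the methyltransferase that methylates the carboxyl end of M-factor. It had 109 and 92.2 scaled CPM in wild-type Pem2, against 78.5 and 71.9 in wild-type ED666b. Both Pem2 libraries were the higher ones, with a log2 fold change of 0.41 (SE 0.14, 95% interval 0.12 to 0.71, adjusted p = 0.613, limma). The gene mam1 (SPBC25B2.02c) encodes the ABC transporter that exports M-factor. Its values were 100.4 and 67.6 in wild-type Pem2, against 59.8 and 69.3 in wild-type ED666b, so the groups overlapped (log2 fold change 0.35, SE 0.16, adjusted p = 0.836, limma). The value was 0.071 without Pem2 replicate 1 and 0.63 without Pem2 replicate 2. In ell1Δ, mam4 and mam1 differed between the strains by 0.10 and 0.24 on the log2 scale (SE 0.14 and 0.16, adjusted p = 0.9997 for both, limma).

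None of the genes for sensing and clearing P-factor and for cell contact was called between the strains. The receptor gene mam2 (SPAC11H11.04) had 9.94 and 4.51 scaled CPM in wild-type Pem2, against 4.24 and 5.25 in wild-type ED666b. One Pem2 library was high and the other lay within the ED666b values (log2 fold change 0.44, SE 0.34, 95% interval -0.30 to 1.18, adjusted p = 0.888, limma). The gene sxa2 (SPAC1296.03c) encodes a secreted carboxypeptidase that degrades P-factor. It had 35.0 and 31.9 in wild-type Pem2, against 34.1 and 34.5 in wild-type ED666b, and its 95% interval of -0.26 to 0.18 was the narrowest of the 8 members in this limma comparison. The gene mam3 (SPAP11E10.02c) encodes the M-cell agglutinin, a surface protein of cell adhesion. It was the lower one in Pem2, with 48.5 and 49.3 scaled CPM, against 54.7 and 63.2 in ED666b (log2 fold change -0.26, SE 0.11, adjusted p = 0.785, limma).

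In wild type, 3 members lay wholly above ED666b (mfm2, mam4 and mfm1), 2 wholly below (mam3 and mfm3) and 3 overlapped. Of all 6160 genes, 43.1% did not overlap between these 2 groups of 2, so 5 of 8 members is near that share. In wild type 4 of the 8, mfm2 included, had an unadjusted p under 0.05 in either direction (limma), beside 5.83% of all genes. In ell1Δ this was 1 of the 8, beside 2.69%. The median log2 fold change of the 8 members was 0.38 in wild type and 0.07 in ell1Δ, beside 0.00 over all genes in both.

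Compared per gene length, mfm2 changed its place among the members. In RPKM, the deposited value per length, mfm2 averaged 177 ± 96.4 in wild-type Pem2 (SD, n = 2) and was the highest member, followed by mam4 at 79.4 ± 9.42. The spread of mfm2 was wide, with 245 and 109 RPKM in the 2 libraries. In wild-type ED666b, mam4 was highest at 59.4 ± 3.68 RPKM, sxa2 followed at 18.5 ± 0.14, and mfm2 ranked 5 of 8 at 10.5 ± 0.33. In Pem2 ell1Δ, mfm2 at 65.9 ± 25.6 and mam4 at 64.1 ± 2.29 RPKM did not differ beyond their spread. The 2 other precursor genes ranked among the last 3 of the 8 in every group with RPKM used here, at 0.64 to 3.01 RPKM on average.

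**Figure D3:**
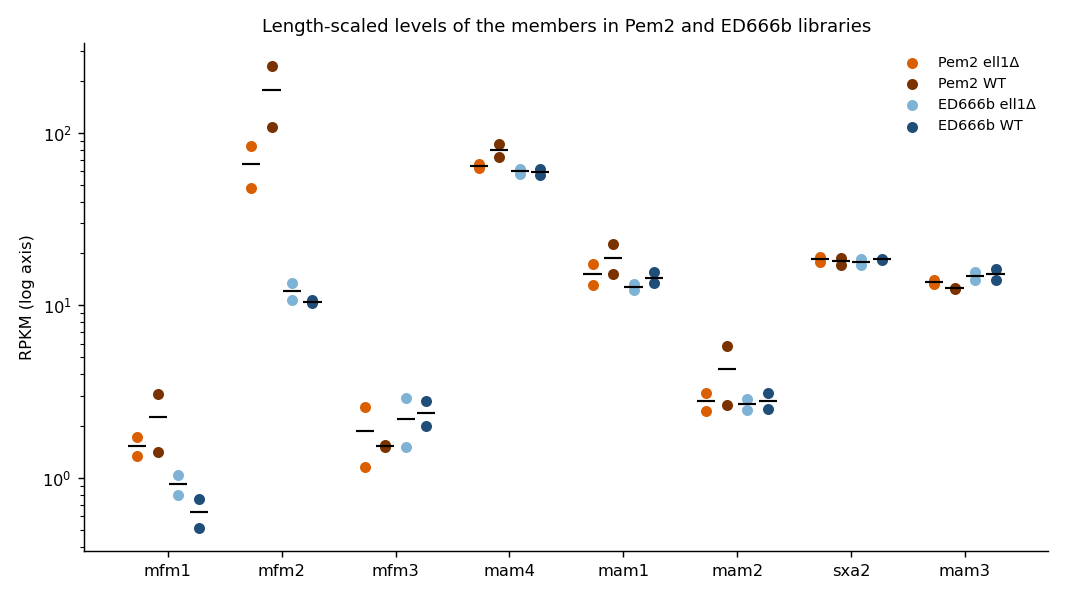
RPKM of the 8 members on a log axis in the 4 groups of Pem2 and ED666b; points are libraries and lines are means. The mfm2 points lie between 47.9 and 245 in Pem2 and between 10.3 and 13.4 in ED666b, while those of sxa2 stay between 17.1 and 19.2.

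Loss of ell1 in Pem2 went with a lower mfm2 level that was not called in the limma fit. The Pem2 ell1Δ libraries had 39.2 and 22.3 scaled CPM of mfm2, against 114 and 50.7 in Pem2 wild type. The groups did not overlap, and the ratio of ell1Δ to wild type was 0.343 between the replicates numbered 1 and 0.44 between those numbered 2. The log2 fold change was -1.33 (SE 0.36, 95% interval -2.12 to -0.54, adjusted p = 0.291, limma), where 15 of 6160 genes (0.244%) were called. Other tools split on it. DESeq2 on the recovered reads gave -1.43 with an adjusted p of 0.0133, where it called 1.27% of genes. The edgeR quasi-likelihood test gave -1.43 with an adjusted p of 0.117, where it called 0.649%. In the authors' deposited table the log2 fold change was -1.42 with an adjusted p of 0.00153, and 1.33% of the 7013 genes there had an adjusted p under 0.05. A limma fit with the replicate number as a replicate block kept -1.33 with an adjusted p of 0.011, where it called 0.39%. In the limma fit without the block, the log2 fold change ranged from -1.91 without Pem2 wild-type replicate 2 (adjusted p = 0.0752) to -0.76 without Pem2 wild-type replicate 1 (adjusted p = 1).

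The other 7 members had log2 fold changes of -0.45 to 0.12 in Pem2 ell1Δ, and none was called (adjusted p = 1 for each, limma). The export gene mam1 had 76.9 and 58.8 scaled CPM in Pem2 ell1Δ, against 100.4 and 67.6 in Pem2 wild type. The methyltransferase gene mam4 had 83.2 and 79.1 in Pem2 ell1Δ, against 109 and 92.2 in Pem2 wild type, and both ell1Δ libraries were the lower ones. The receptor gene mam2 had 5.30 and 4.14 in Pem2 ell1Δ, against 9.94 and 4.51 in Pem2 wild type, with the groups overlapping. Groups did not overlap for 3 members, with mfm2 and mam4 lower and mam3 higher, beside 37.9% of all genes.

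In ED666b, mfm2 had 5.0 and 6.27 scaled CPM in ell1Δ, against 4.79 and 5.01 in wild type, which overlap. Its log2 fold change was 0.16 (SE 0.36, 95% interval -0.63 to 0.95, adjusted p = 0.998, limma). None of the 8 members was called there, with log2 fold changes of -0.18 to 0.20, in a comparison that called 0.519% of genes. The authors' deposited table likewise held no member under an adjusted p of 0.05 in ED666b ell1Δ, beside 1.58% of its genes. The difference between the ell1Δ effects, Pem2 minus ED666b, was -1.497 for mfm2 (SE 0.52, 95% interval -2.61 to -0.38, adjusted p = 0.9997, limma), in a test that called 2 genes (0.0325%). It was not called. It ranged from -2.08 without Pem2 wild-type replicate 2 to -0.92 without Pem2 wild-type replicate 1, and with the replicate block its adjusted p was 0.142. For the other 7 members this difference lay between -0.48 and 0.16.

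**Figure D4:**
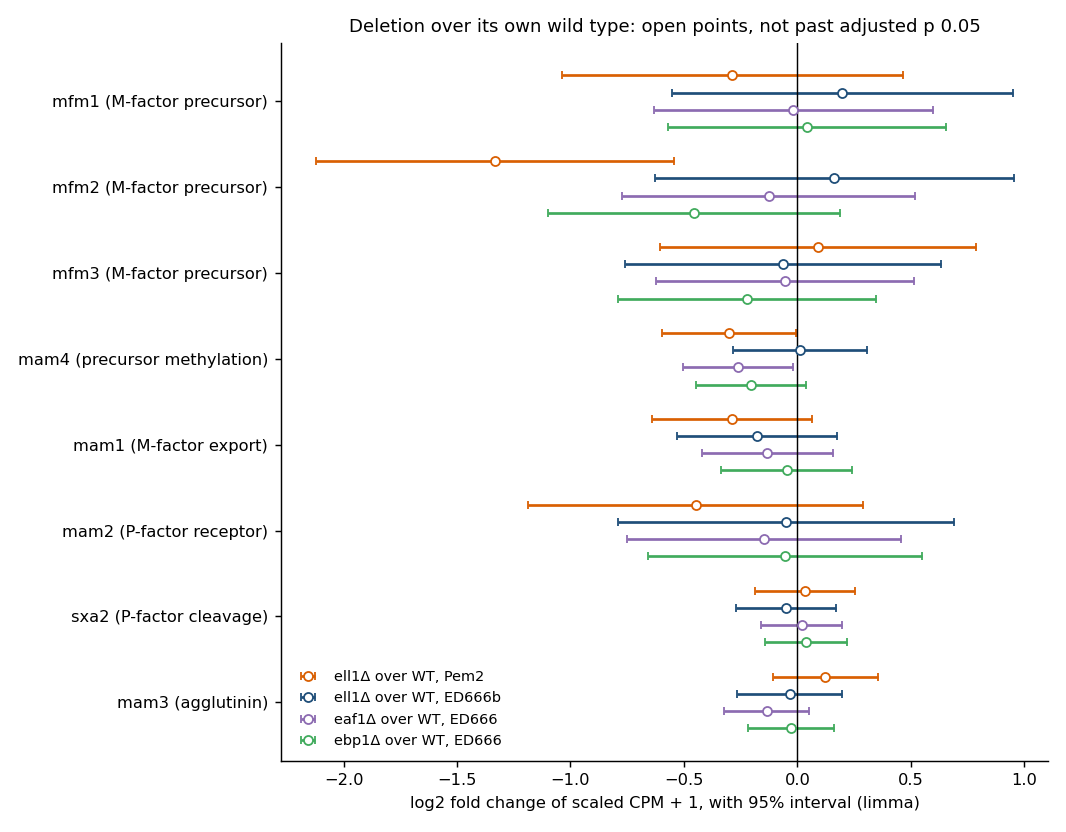
Log2 fold change of scaled CPM + 1 in each deletion over its own wild type, with its 95% interval from limma, for the 8 members; open points are not called. All points are open, and the interval of mfm2 in Pem2 ell1Δ runs from -2.12 to -0.54.

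Loss of eaf1 or ebp1 was measured in h+ ED666 cells alone, where M-cell genes are the genes of the other mating type. The 2 comparisons share the 3 wild-type libraries. In eaf1Δ, mfm2 had 4.04, 3.46 and 5.73 scaled CPM, in ebp1Δ 4.55, 2.56 and 2.86, and in wild type 3.95, 4.31 and 6.5. These groups overlapped. The log2 fold change of mfm2 was -0.13 (SE 0.30, adjusted p = 0.878) in eaf1Δ and -0.46 (SE 0.30, adjusted p = 0.485) in ebp1Δ by limma. In ebp1Δ it was -0.27 without wild-type replicate 3. No member was called in eaf1Δ, where the 8 values ran from -0.26 to 0.02 and 0.844% of genes were called, or in ebp1Δ, where they ran from -0.46 to 0.04 and 3.67% were called. The authors' deposited table called 1.28% of genes in eaf1Δ and 3.24% in ebp1Δ, and no member in either.

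The methyltransferase gene mam4 was not called in either deletion. It had 64.7, 60.2 and 58.3 scaled CPM in eaf1Δ, 64.1, 59.6 and 67.1 in ebp1Δ and 64.7, 67.7 and 90.4 in wild type. The third wild-type replicate was the highest of the 9 libraries. The log2 fold change was -0.26 (SE 0.11, adjusted p = 0.332) in eaf1Δ and -0.21 (SE 0.11, adjusted p = 0.379) in ebp1Δ by limma. Without that replicate these were -0.12 in eaf1Δ and -0.058 in ebp1Δ. For mam1 the 3 eaf1Δ libraries, at 43.0 to 47.8, lay below the 3 wild-type libraries, at 48.0 to 53.6 (log2 fold change -0.13, SE 0.13, adjusted p = 0.676, limma). The other 7 members overlapped between these groups, and the share of all genes that did not overlap was not counted.

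Single libraries stood out within groups. In wild-type Pem2, 3 of 8 members were 2-fold or more higher in replicate 1 than in replicate 2, beside 0.617% of all genes. These were mfm2 at 114 and 50.7 scaled CPM, mam2 at 9.94 and 4.51 and mfm1 at 2.37 and 1.08. Of the listed signalling genes, 6 of 11 were higher in replicate 1 than in replicate 2, as were 5 of 19 tested mating regulators. The next 3 genes, and ste11 below, were chosen after their values were seen. The RNA-binding meiosis regulator mei2 had 26 and 11.2 scaled CPM in wild-type Pem2 replicates 1 and 2, the MAP kinase gene spk1 46.6 and 27.3, and rgs1, a regulator of G-protein signalling, 64.3 and 33.0. In wild-type ED666b these had 23.4 and 11.9, 35.2 and 25.1, and 50.6 and 37.9, so replicate 1 was the higher one there too. In Pem2 ell1Δ, mei2 had 13.3 and 8.31, spk1 31.9 and 27.2 and rgs1 35.2 and 27.0. In ED666b ell1Δ, mei2 had 9.35 and 5.94, spk1 28.9 and 23.7 and rgs1 30.6 and 26.1. The gene of the mating regulator ste11 had 27.8 and 25.4 in Pem2 ell1Δ, against 42.9 and 32.6 in Pem2 wild type (log2 fold change -0.48, SE 0.37, adjusted p = 1, limma). In ED666b ell1Δ, ste11 had 24.6 and 28.4, against 38.3 and 42.4 in ED666b wild type. There mfm2 was not lower, at 5.0 and 6.27 in ell1Δ and 4.79 and 5.01 in wild type. The part of these other genes in the lower mfm2 level of Pem2 ell1Δ was not tested.

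In ED666 wild type, replicate 3 was the highest of 3 for 5 of 8 members, beside 43.2% of all genes, so 5 of 8 is near that share. Across all tested genes, Pearson's r of log2 levels was 0.980 between replicate 3 and each other replicate, and 0.994 between replicates 1 and 2. In replicate 3 mei2 had 190 scaled CPM, against 9.42 and 6.39 in the other replicates, and ste11 had 59.9, against 20.7 and 23.1. Both genes were chosen after their values were seen. Of the listed signalling genes, ras1, byr2, shk1 and gap1 were lowest in replicate 3, and others such as spk1 were highest. The gene mfm2 had 6.5 there. Without this replicate the log2 fold change of mfm2 in eaf1Δ was 0.06.

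**Figure D5:**
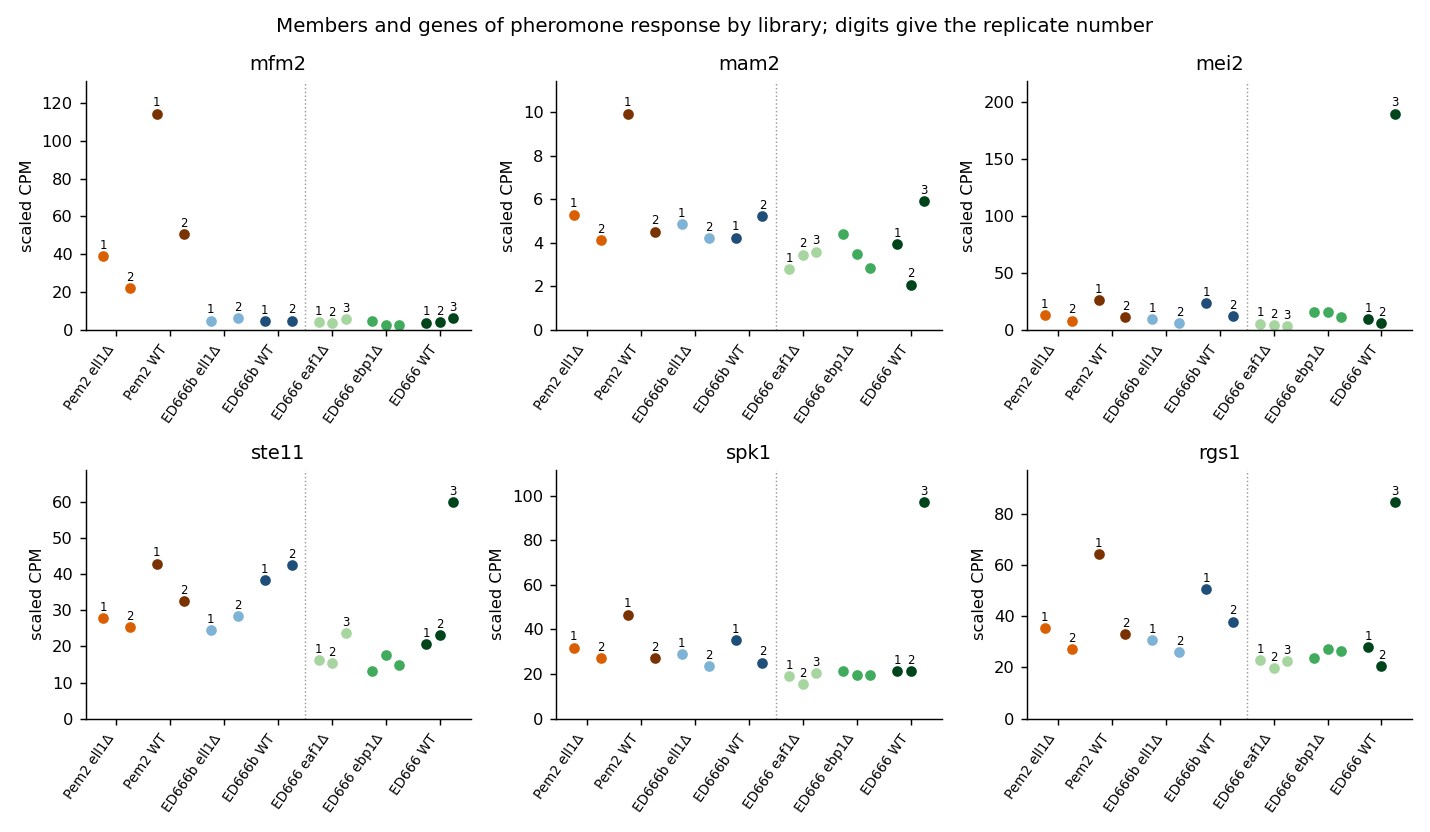
Scaled CPM by library of the members mfm2 and mam2 and of mei2, ste11, spk1 and rgs1; digits are replicate numbers, left out for ebp1Δ, and the dotted line parts the 2 sets. Replicate 1 of wild-type Pem2 is the higher one in each panel, and replicate 3 of ED666 wild type reaches 190 for mei2.

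The 5 listed P-cell genes showed smaller strain differences than mfm2. None of them was called between Pem2 and ED666b, with log2 fold changes of -0.35 to 0.29 in wild type and -0.11 to 0.38 in ell1Δ. Of all genes, 0.0812% were called in wild type and 0.146% in ell1Δ, so none of 5 is near these shares. In wild type 2 of the 5 had an unadjusted p under 0.05 (limma), beside 5.83% of all genes. In ell1Δ 0 of the 5 did, beside 2.69%. In wild type, the M-factor receptor gene map3 averaged 22.9 scaled CPM in Pem2 and 29.4 in ED666b, and the P-factor precursor gene map2 5.46 in Pem2 and 5.87 in ED666b. The protease gene sxa1 averaged 518 in Pem2 and 583 in ED666b, and the P-cell agglutinin gene map4 26.3 in Pem2 and 34.5 in ED666b. The regulator gene map1 averaged 14.7 in Pem2 and 11.6 in ED666b.

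Of the mating-type cassette genes, mat2-Pc alone passed the low-value filter, and copies at mat1 and the silent loci make the counting uncertain. The P-specific regulator gene mat2-Pc had 0.0557 scaled CPM or less in the 4 Pem2 libraries and 2.46 to 12.0 in the 13 h+ libraries. It thus passed the filter through the h+ libraries alone, the side where it was high. It fell in Pem2 against ED666b, by 2.93 on the log2 scale in wild type (SE 0.24, adjusted p = 6.27e-05) and by 2.80 in ell1Δ (SE 0.24, adjusted p = 0.000107), by limma. The M-specific regulator gene mat1-Mc held 30 reads over the 4 Pem2 libraries, at 0.0735 to 0.306 scaled CPM, and 0 reads in all 13 h+ libraries. The M cassette genes mat1-Mi and mat3-Mm had 0 reads in all 17 libraries, Pem2 included. In ebp1Δ, mat2-Pc rose by 0.89 (SE 0.19, adjusted p = 0.0228, limma), with 10.03 ± 1.84 scaled CPM in ebp1Δ and 5.06 ± 1.65 in wild type (SD, n = 3 each). That call was lost, with adjusted p of 0.0505 to 0.105 (limma), when either of 2 ebp1Δ libraries or wild-type replicate 1 or 2 was left out.

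Among further lists of the pathway, 0 of 5 pheromone processing genes, 0 of 11 signalling genes, 0 of 19 tested mating regulators, 0 of 10 fusion genes and 0 of 12 nitrogen starvation genes were called between the strains, in wild type or in ell1Δ (limma). Of all genes, 0.0812% were called in wild type and 0.146% in ell1Δ, so these counts are near those shares. None of these listed genes was called in the 2 ell1Δ effects or in eaf1Δ either. The shares of all genes there were 0.244% in Pem2 ell1Δ, 0.519% in ED666b ell1Δ and 0.844% in eaf1Δ. In ebp1Δ, rst2, the gene of an activator of ste11, rose by 0.32 (SE 0.06, adjusted p = 0.0136) and the ammonium transporter gene amt1 by 0.74 (SE 0.14, adjusted p = 0.00987), and the amino acid permease gene put4 fell by 0.55 (SE 0.13, adjusted p = 0.0390), by limma. The call of put4 was lost when any 1 of its 6 libraries was left out (adjusted p of 0.0502 to 0.173), and that of rst2 when 1 ebp1Δ library was (0.0588). In a limma fit of the compared libraries alone all 3 calls were lost, with adjusted p of 0.114 for amt1, 0.116 for put4 and 0.176 for rst2. The other genes called between wild-type Pem2 and ED666b were the noncoding RNAs SPNCRNA.1133 and mag2-antisense-1, both higher, and rpn501 and mat2-Pc, both lower. Of the 5 genes called there, 3 (mfm2, mat2-Pc and SPNCRNA.1133) were called the same way in ell1Δ. Of these, mat2-Pc passed the low-value filter through the h+ libraries alone, where it was high. The call of SPNCRNA.1133 was lost in wild type without Pem2 replicate 2 (adjusted p = 0.0831) or ED666b replicate 2 (0.0829), and in ell1Δ without any 1 of its 4 libraries (0.124 to 0.137), by limma. The proteasome gene rpn501 has a near-identical copy, so its counts are uncertain, and it is named here after its values were seen, as is mag2-antisense-1.

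Across all 17 libraries, members followed their common pattern to unequal degrees. Pearson's r of log2 levels with the mean z-score of the 8 members was 0.91 for mam4, 0.89 for mam1, 0.86 for mam2, 0.83 for mfm2 and 0.77 for mfm1, all of which enter that mean. It was 0.50 for mam3, 0.29 for sxa2 and -0.18 for mfm3. The 10 other genes with the highest r (0.88 to 0.93) were SPAC977.18, med31, prl58, SPCC569.02c, poz1, sld5, thp1, miy1, SPCC16C4.04 and SPBC577.03c. These libraries span 2 scalings and 2 depth ranges. The Mediator subunit gene med31, for one, averaged 77.2 scaled CPM in Pem2 wild type and 67.6 in ED666b wild type, against 63.7 in ED666 wild type.

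Some members share their stretch of chromosome with other genes. By the annotation of a later build, mfm1, mfm2 and mam2 overlap no other gene, while sxa2, mam3, mam1 and mfm3 overlap, on the opposite strand, cox4, SPAP11E10.01, hbs1 and mfm3-antisense-1. The gene mam4 overlaps a noncoding RNA on the opposite strand, and sxa2 and mam1 overlap further noncoding RNAs, none of which was used here. Whether counting used strand is not stated, and without strand the reads of such pairs cannot be told apart. The antisense RNA of mfm3 had 37.8 to 59.1 scaled CPM over the 17 libraries, against 0.135 to 1.97 for mfm3.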

How the data were processed

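PolyA RNA-seq of 17 libraries was used, in 7 groups read from the labels; the 23 chromatin and input samples were not analysed here. The members and gene lists were chosen with earlier results of these data known. The authors deposited 1 table of 7013 genes. Its column headed cpm is a signal in the authors' scaling: 100% of the deposited values were whole reads times 1 constant per library (tolerance 0.01), and the constants show 2 sets scaled apart, so 2 planned comparisons between the sets (Pem2 wild type and ED666b wild type, each against ED666 wild type) were not tested. The deposited RPKM values, per the file headers, are the same signal per gene length. That deposited table also holds log2 fold changes and p-values of the authors' own comparisons. The submitters' processing notes list TopHat2 2.1.1, Bowtie2 2.2.9, edgeR, SAMtools 1.3.1 and MACS2, and build ASM294v2; no counter, annotation or strand setting is stated. The code in the ebp1Δ column names appears in no label, and these columns went to ebp1Δ as the group left once all others were matched; 3 RPKM columns with that code were not used. The reference was a later build and served only for names (6845 of 7013 matched) and overlaps, and no sequence or coordinate is printed.

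The 6160 genes that reached 1 scaled CPM in 2 or more libraries entered 1 limma 3.58.1 model (R 4.3.3) of 7 group means on log2(scaled CPM + 1), trend and robust off, with 10 residual and 2.61 prior degrees of freedom and Benjamini-Hochberg adjustment over all genes; such fold changes understate changes of low genes. A floor of 3 reads equalled 0.0704 to 0.0835 scaled CPM in Pem2 and ED666b and 0.335 to 0.456 in ED666 and covers counting error only. Replicates differed by more than sampling noise. The alternatives were other scalings, pseudocounts, filters and fits, edgeR 4.0.16 and DESeq2 1.42.0 on the recovered reads, a replicate block and leaving out each library; a joint TMM scaling was added after seeing the data. The fits were tested on simulated data. Named genes were all members, the P-cell genes, the deleted genes, up to 4 called genes of each list, the 10 genes most like the members and the called genes shared by both strain comparisons.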

Additional observations from a re-analysis of the deposited data

How the results depend on the processing

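Groups held 2 or 3 libraries, mfm1 and mfm3 rested on few reads, and no depth removes the spread between the 2 wild-type Pem2 libraries. Of 56 member results (8 members in 7 comparisons), 29 kept their sign under every alternative run and 27 did not, and a call changed in 3, all of mfm2. Between the wild types of Pem2 and ED666b, mfm2 kept its direction throughout and lost its call only in a fit of the compared libraries alone (3.71, adjusted p = 0.130, limma). Between the ell1Δ strains it lost its call with pseudocount 0.1 (2.38, adjusted p = 0.0537), in a fit of the compared libraries alone (2.21) and with a library left out (1.82 to 2.61). In Pem2 ell1Δ it gained a call by DESeq2 (-1.43) and with the replicate block (-1.33). The cause was not tested.

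Counts of called genes moved as follows. Between the wild types (5 genes), edgeR called 11 and DESeq2 68, and 3 to 6 were called with a library left out. Between the ell1Δ strains (9), these were 4 in the compared libraries alone, 36 by DESeq2, 17 with the replicate block and 3 to 5 with a library left out. In Pem2 ell1Δ (15), pseudocount 5 gave 23, a limma fit of the compared libraries alone 0 (530 at an unadjusted p under 0.05), edgeR 40, DESeq2 78, the replicate block 24 and leaving out a library 3 to 16. In ED666b ell1Δ (32), DESeq2 gave 88 and leaving out a library 5 to 8. The difference of the ell1Δ effects (2) gave 4 by DESeq2 and 1 with the replicate block. In eaf1Δ (52), the compared libraries alone gave 11, edgeR 27, DESeq2 118, the replicate block 100 and leaving out a library 21 to 70. In ebp1Δ (226), the compared libraries alone gave 65 and leaving out a library 134 to 368; the count of 368 was without wild-type replicate 3.

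Same-numbered libraries deviated together, with r of 0.66 in Pem2, 0.65 in ED666b, 0.42 between the wild types and 0.71 between the ell1Δ strains. For the 3 numbers of eaf1Δ and wild type r was 0.23, 0.14 and 0.048. Groups of 2 give the same r for both numbers, so each of these values is a single observation. The labels do not say what a shared number stands for, so whether these libraries are pairs cannot be told. The replicate block changed the call of no other member. The ebp1Δ columns carry no number, so that comparison had no replicate block. The 2 comparisons across the scaled sets, and their alternatives, were not run.

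Of results that were not called, these changed sign (log2 fold changes). After rescaling to a common total per library these were sxa2 between the wild types (0.0045), sxa2 in eaf1Δ (-0.0084) and mam3 in ebp1Δ (0.001). By quantile normalization these were map4 between the ell1Δ strains (-0.0069) and mam2 in ebp1Δ (0.041). By edgeR these were map4 (-0.0027) and sxa1 (-0.0004) between the ell1Δ strains and mfm1 in ebp1Δ (-0.045), and by DESeq2 the same 3 (-0.0057, -0.0036 and -0.042). By TMM over all 17 libraries map4 did so (-0.0012), and with pseudocount 0.1 mfm1 in eaf1Δ (0.12). The rest did so with a library left out, over the ranges given. Between the wild types these were mam2 (-0.053 to 0.94), map1 (-0.16 to 0.74), map2 (-0.26 to 0.11) and sxa2 (-0.10 to 0.026). Between the ell1Δ strains these were mam2 (-0.10 to 0.19), map2 (-0.11 to 0.18), map4 (-0.066 to 0.078), mfm3 (-0.31 to 0.11), sxa1 (-0.095 to 0.11) and sxa2 (-0.012 to 0.11). In Pem2 ell1Δ they were mam2 (-0.94 to 0.046), mfm1 (-0.63 to 0.061), mfm3 (-0.12 to 0.31) and sxa2 (-0.029 to 0.098). In ED666b ell1Δ they were mam2 (-0.18 to 0.077), mam3 (-0.14 to 0.069), mam4 (-0.052 to 0.073), mfm3 (-0.26 to 0.14) and sxa2 (-0.11 to 0.0093). In the difference of the ell1Δ effects they were mam1 (-0.39 to 0.17), mam2 (-0.89 to 0.096) and mfm3 (-0.061 to 0.37). In eaf1Δ they were mam2 (-0.46 to 0.13), mfm1 (-0.26 to 0.31), mfm2 (-0.29 to 0.056), mfm3 (-0.11 to 0.062) and sxa2 (-0.052 to 0.074). In ebp1Δ they were mam2 (-0.36 to 0.22), mam3 (-0.095 to 0.044), mfm1 (-0.20 to 0.37), mfm3 (-0.60 to 0.089) and sxa2 (-0.036 to 0.094).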
